A study of Mus musculus with 9 samples.

Results

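The nuclear genes for the subunits of oxidative phosphorylation were examined by complex in 4T1, a mammary carcinoma line of the mouse known for metastasizing to the lung. Members were taken by symbol from the deposited count table, as all Ndufa, Ndufb, Ndufc, Ndufs and Ndufv genes for complex I, Sdha to Sdhd for complex II, the Uqcr genes and Cyc1 for complex III, the genes Cox4 to Cox8 for complex IV and all Atp5 genes for complex V. This gave 85 of the 24421 genes in the table, of which 37 fell to complex I, 4 to complex II, 9 to complex III, 18 to complex IV and 17 to complex V. The study compared spheroids (3D cultures) with monolayers (2D cultures) and asked how additional palmitate, a saturated fatty acid that cells can oxidize in their mitochondria, is handled. Gene expression was measured by poly(A) RNA-seq in 9 libraries of 3 conditions with 3 libraries each, namely 3D cultures without additional palmitate, 3D cultures with 75 µM palmitate and 2D cultures with 75 µM palmitate, all grown for 5 days. All 3 conditions used the same line in serum-containing medium and palmitate was supplied bound to albumin, so the cultures without additional palmitate still received the fatty acids of the serum. Monolayers lacking additional palmitate were not analysed here, which leaves palmitate untested in 2D, and nothing in the labels says whether replicates were separate cultures, so the p-values measure the spread between these libraries.

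Oxidative phosphorylation passes electrons from NADH through complex I, and from succinate through complex II, to ubiquinone, then through complex III and cytochrome c to complex IV, which reduces oxygen. Complexes I, III and IV pump protons across the inner mitochondrial membrane, and complex V, the ATP synthase, uses the gradient to make ATP. Each complex holds core subunits that carry the redox centres or the catalytic sites and, except for complex II, many accessory subunits needed for assembly and stability, and the oxidation of fatty acids feeds this chain with NADH and with electrons that enter at ubiquinone.

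Total counts per library ranged from 6595514 in replicate 3 of the 3D cultures with palmitate to 31177756 in replicate 2 of the 2D cultures. Levels below are CPM, counts scaled to library size by TMM, which compare libraries for a gene, and genes are compared with each other only per kilobase of transcript. All 7 epithelial markers examined lay above 1 CPM in every library, and their summed level was 5070 to 5330 CPM in 3D cultures with palmitate and 4120 to 4450 CPM in 2D cultures, with 4 of the 7 higher in 3D at an adjusted p under 0.05 in edgeR (log2 fold changes of 1.43 for Epcam and 0.59 for Krt8) and 2 lower (Krt7 at -0.51 and Cldn4 at -0.82). The summed level of 7 fibroblast markers was 93.4 to 111 CPM against 33.2 to 34.6 CPM, with 2 of the 7 at 0 in every library. Pdgfra made up nearly all of this sum (means of 98.8 and 30.4 CPM), whereas the collagen genes Col1a1 and Col1a2 were lower in 3D, at -1.06 and -4.66. That of 7 leukocyte markers, of which 2 were at 0 throughout, was 8.58 to 11.4 CPM against 24.4 to 27.8 CPM. Here Cd68 made up nearly all of the sum (9.40 and 25.7 CPM), and Ptprc, at 0.442 and 0.0765 CPM, ran the other way without enough counts to be tested. The part of these lists in the results below was not tested. Of the 13 mitochondrially encoded subunits, 0 had a row in the table used here, so the measurements cover the nuclear genes alone.

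Of the 85 members, 77 passed the filter on low counts, which were 35 of complex I, 4 of complex II, 9 of complex III, 12 of complex IV and 17 of complex V. Among the 8 that did not, Ndufs5 and Cox8c were listed at 0 in every library, and Ndufa4l2, Cox4i2, Cox6b2, Cox7a1, Cox7b2 and Cox8b had between 0 and 13 counts per library. Several of these 6 are tissue-restricted or hypoxia-induced isoforms (Cox4i2, Cox7a1, Ndufa4l2), and with so few counts they were left out of the test of differences. Ndufs5 encodes a ubiquitous accessory subunit of complex I, and whether its reads were lost to near-identical copies during counting was not tested.

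In 3D cultures with palmitate, 70 of the 77 members were lower than in 2D cultures with palmitate and 0 were higher, at an adjusted p under 0.05 in edgeR's quasi-likelihood test fitted to all 12575 genes with sufficient counts. Across all genes tested, 33.9% were called lower and 34.5% higher in this comparison. The median log2 fold change of the members was -0.59, with an interquartile range of -0.73 to -0.38, whereas the median over all genes was 0.01. For 67 members all 3 libraries of 3D cultures with palmitate lay below all 3 of the 2D cultures, against 34.8% of all genes, and 44 members were called with a fall of at least 0.5 on the log2 scale, against 19.3% of all genes. The call did not extend to Ndufa11, Ndufb11, Cox7a2l, Atp5e, Atp5g1, Atp5l and Atp5sl, which had negative log2 fold changes as well. The highest adjusted p among the called members was 0.0423 and the lowest among the others was 0.0632 (edgeR). Every tested member had its highest mean level in 2D cultures, and in 66 all 6 libraries of 3D cultures, with or without palmitate, lay below all 3 of the 2D cultures. The share of all genes meeting this stricter condition was not counted. It cannot exceed the 34.8% given above for 3D cultures with palmitate alone.

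**Figure D1:**
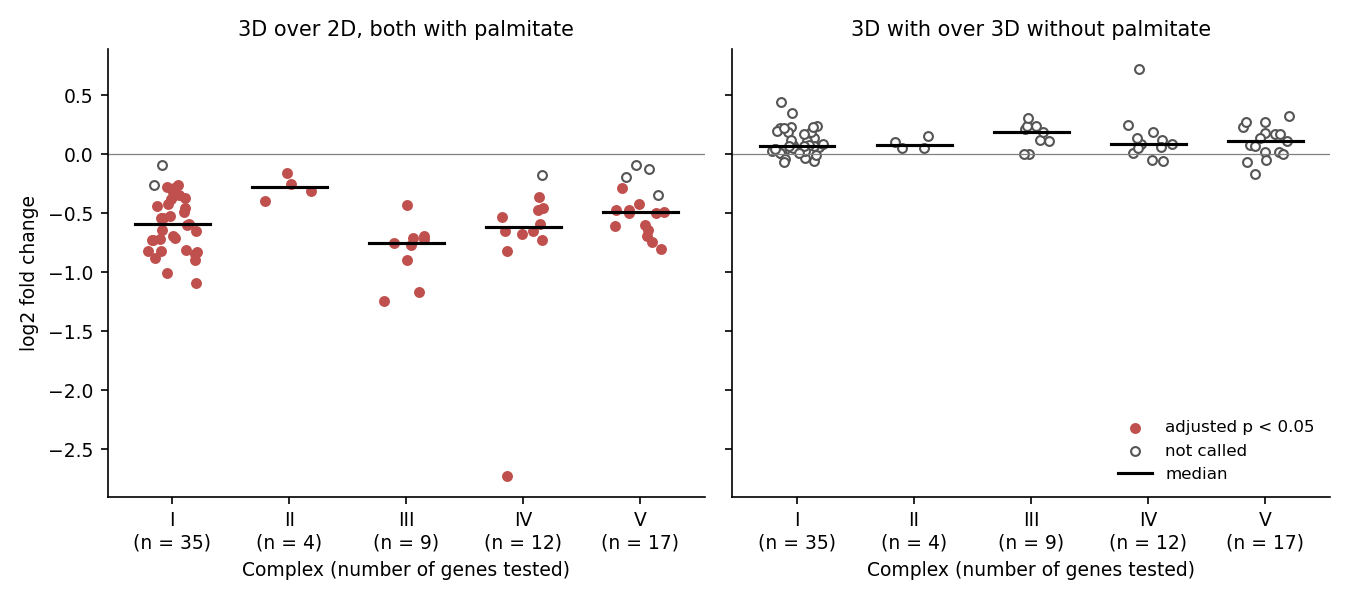
The log2 fold change of each tested member is plotted by complex for 3D over 2D cultures with palmitate (left) and for 3D cultures with over without palmitate (right), with filled points for an adjusted p under 0.05, open points for the others and a bar at each complex's median. On the left all points lie below 0 and the medians run from -0.28 for complex II to -0.75 for complex III, and on the right no point is filled and the medians lie between 0.07 and 0.19.

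The size of the difference, and for some members its direction, depended on the handling of GC content and transcript length. The members were short, with a median transcript length of 809 nt against 2793 nt over all genes tested, and over all genes the fold change between 3D and 2D cultures rose with length (Spearman's rho of 0.31 across 12507 genes, which are not independent replicates). Within the 77 members the same rho was 0.04. Once the dependence on GC content and length had been removed per library, 52 members were lower and 5 were higher in 3D cultures (against 36.8% and 34.7% of all genes), and the median was -0.27. The 52 were all among the 70 called without the correction. The 5 that were then called higher were Ndufa4, Ndufa11, Ndufb11, Atp5g1 and Atp5l, and 14 members in all changed sign. The correction moved the members by a median of 0.32 on the log2 scale and all genes by 0.01. What part of this trend is technical was not tested, so the corrected value is given beside each complex below.

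**Figure D2:**
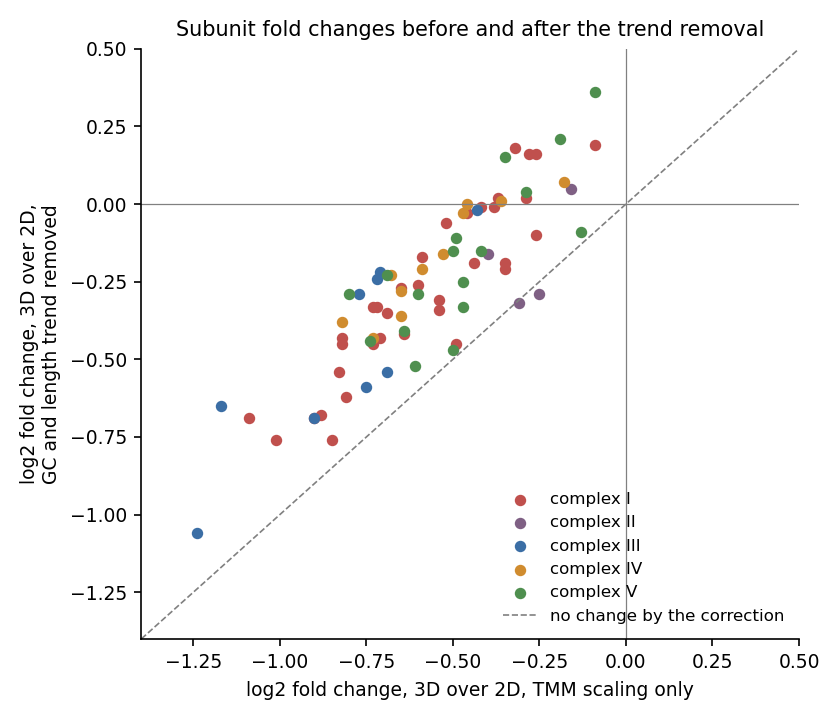
Each point is a tested member, with the log2 value for 3D over 2D cultures with palmitate before (horizontal) and after (vertical) removal of the trend with GC content and length, coloured by complex, and the dashed line marks equal values. Cox6a2, at -2.73 and -2.41, lies outside the axes. Most points sit above the dashed line, and Cyc1 has the lowest value on both axes among the genes shown.

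Complex I oxidizes NADH. Its 7 nuclear core subunits, which bind FMN and the iron-sulfur clusters, were all lower in 3D cultures, with log2 fold changes between -0.81 and -0.35. Ndufs1, the large subunit with several iron-sulfur clusters (chromosome 1, 63143596 to 63176833 in GRCm38), had 159, 161 and 154 CPM in the 2D libraries, 103, 110 and 126 CPM in 3D with palmitate and 111, 116 and 113 CPM in 3D without. The 2D libraries lay above all 6 of the 3D libraries, whereas the 2 kinds of 3D library were intermingled, and the 3D over 2D log2 fold change with palmitate was -0.49 ± 0.07 (SE, n = 3 per group, adjusted p = 2.35e-05, edgeR). Ndufv1, which binds NADH and FMN, had 119, 127 and 137 CPM in 2D, 112, 102 and 84.2 CPM in 3D with palmitate and 85.1, 83.0 and 89.5 CPM in 3D without. Here the highest 3D library came close to the lowest 2D library, and the log2 fold change was -0.35 ± 0.09 (SE). Ndufv2, its partner in the electron input module, differed more, with a mean of 193 ± 11.6 CPM in 2D and 111 ± 6.95 CPM in 3D with palmitate (SD, n = 3 each).

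Of the 28 accessory subunits tested, 26 were lower in 3D cultures, with log2 fold changes between -1.09 and -0.26 among those called. The lowest was Ndufs6, a zinc-binding subunit of the electron input arm (chromosome 13, 73319838 to 73328542), with 66.2, 56.1 and 67.3 CPM in 2D, 28.3, 28.7 and 33.2 CPM in 3D with palmitate and 31.2, 29.0 and 28.2 CPM in 3D without. The 3D libraries of both kinds overlapped, and all lay far below the 2D libraries, with a log2 fold change of -1.09 ± 0.09 (SE, adjusted p = 7.07e-08, edgeR) that became -0.69 once the trend was removed. Ndufb4, Ndufa12 and Ndufs4 followed at -1.01, -0.90 and -0.88. At the other end, Ndufb11 of the membrane arm had 54.7, 51.5 and 61.0 CPM in 2D and 57.6, 53.8 and 42.7 CPM in 3D with palmitate, and the groups overlapped (log2 fold change of -0.09 ± 0.10, SE). Ndufa4 carries a complex I name but is known to associate with complex IV, and its log2 fold change was -0.28, or 0.16 with the trend removed. Over the 35 genes of complex I the median was -0.59, or -0.31 with the trend removed.

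Complex II, the succinate dehydrogenase of the tricarboxylic acid cycle, is encoded in the nucleus alone. All 4 subunits were lower in 3D cultures, with a median nearer to 0 than those of the other complexes, a position that was lost with the trend removed, when complexes II, IV and V were at -0.22, -0.22 and -0.23. Sdha, the flavoprotein that oxidizes succinate (chromosome 13, 74322254 to 74350280), had 208, 214 and 198 CPM in 2D, 165, 166 and 168 CPM in 3D with palmitate and 159, 160 and 162 CPM in 3D without. Each group was narrow and the 3 groups did not overlap, and the 3D over 2D log2 fold change was -0.31 ± 0.06 (SE, adjusted p = 0.000195, edgeR). With palmitate in 3D, Sdha was at 0.05 and was not called (adjusted p = 0.696, edgeR). Sdhb, which carries the iron-sulfur clusters, had 150, 140 and 158 CPM in 2D and 123, 116 and 99.1 CPM in 3D with palmitate, a log2 fold change of -0.40 ± 0.08 (SE). The membrane anchors Sdhc and Sdhd, which bind ubiquinone, were at -0.25 and -0.16. The median over the 4 genes was -0.28, and Sdhd was at 0.05 with the trend removed. The call of Sdhd (adjusted p = 0.028, edgeR) was also lost with only the 2 groups compared (0.0565) and in DESeq2 on those 2 groups (0.0654), and it was lost as well when replicate 1 (0.085) or replicate 2 (0.05) of the 2D cultures was dropped. The members of complex II were long for the set, with a median transcript length of 2066 nt.

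Complex III passes electrons from ubiquinol to cytochrome c. All 9 of its genes were lower in 3D cultures, and 8 of the 9 were called with a fall of at least 0.5. Cyc1, cytochrome c1 (chromosome 15, 76343523 to 76346260), had 178, 172 and 186 CPM in 2D, 83.8, 78.5 and 62.2 CPM in 3D with palmitate and 66.1, 65.9 and 64.8 CPM in 3D without. Its mean in 3D cultures was 41.9% of the 2D mean with palmitate and 36.7% without, and the 3D over 2D log2 fold change was -1.24 ± 0.09 (SE, adjusted p = 1.3e-08, edgeR), or -1.06 with the trend removed. No other tested member apart from Cox6a2, described below, had a lower value in either fit. Uqcrfs1, the Rieske iron-sulfur protein, which like Cyc1 carries a redox centre, had 143, 139 and 154 CPM in 2D, 87.6, 75.7 and 68.1 CPM in 3D with palmitate and 65.5, 69.6 and 70.8 CPM in 3D without, with a log2 fold change of -0.90 ± 0.08 (SE).

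The core proteins Uqcrc1 and Uqcrc2, which carry no redox centre, were at -0.75 and -0.69. Uqcrc1 had 352, 336 and 362 CPM in 2D and 243, 216 and 160 CPM in 3D with palmitate, where replicate 3 lay below the 174, 179 and 174 CPM of the 3D cultures without palmitate. Among the 5 small accessory subunits the log2 fold changes ran from -1.17 for Uqcrq, a ubiquinone-binding subunit, to -0.43 for Uqcrh, the hinge protein near cytochrome c1. Uqcrq (chromosome 11, 53427922 to 53430831) had 165, 143 and 163 CPM in 2D, 79.2, 68.4 and 59.0 CPM in 3D with palmitate and 59.7, 56.0 and 53.3 CPM in 3D without. Uqcrh had 104, 96.6 and 108 CPM in 2D, 75.1, 75.9 and 79.5 CPM in 3D with palmitate and 81.4, 76.8 and 72.2 CPM in 3D without. With the trend removed Uqcrq was at -0.65 and Uqcrh at -0.02, and the median of the complex moved from -0.75 to -0.54.

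Complex IV, cytochrome c oxidase, has its catalytic subunits encoded in mitochondria, and its nuclear members are accessory subunits. Of the 12 tested, 11 were lower in 3D cultures. Cox4i1, the largest of the nuclear subunits and a site of regulation by ATP (chromosome 8, 120668222 to 120674207), had 384, 372 and 428 CPM in 2D, 275, 260 and 217 CPM in 3D with palmitate and 245, 233 and 230 CPM in 3D without, with a log2 fold change of -0.65 ± 0.08 (SE, adjusted p = 7.64e-06, edgeR). All 6 libraries of 3D cultures lay below the 2D libraries, and replicate 3 of the 3D cultures with palmitate was the lowest of the 9. Cox5a had 192, 178 and 192 CPM in 2D and 133, 132 and 105 CPM in 3D with palmitate, a log2 fold change of -0.59 ± 0.08 (SE). Cox6c had 216, 200 and 229 CPM in 2D, 115, 124 and 129 CPM in 3D with palmitate and 144, 121 and 112 CPM in 3D without, a log2 fold change of -0.82 ± 0.09 (SE) with the smallest p of the complex.

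Cox7a2l, which takes part in joining complexes III and IV into supercomplexes, was the exception, with 60.0, 54.0 and 59.3 CPM in 2D and 56.0, 50.7 and 43.6 CPM in 3D with palmitate (log2 fold change of -0.18 ± 0.08, SE, adjusted p = 0.0658, edgeR). It was called lower without the filter on low counts (0.0296), without replicate 2 of the 2D cultures (0.0396) and without replicate 1 of the 3D cultures with palmitate (0.00673). Cox6a2, the heart and muscle isoform of Cox6a1, had 24, 52 and 45 counts in 2D, 10, 3 and 0 counts in 3D with palmitate and 2, 4 and 3 counts in 3D without. It passed the filter only through the 2D libraries, so its log2 fold change of -2.73 ± 0.38 (SE) is given as a description, and with at least 10 counts required in every library 69 of 76 members were called lower. Cox6a1 itself was at -0.47, or -0.03 with the trend removed. The median of the complex was -0.62, and -0.22 with the trend removed.

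Complex V turns the proton gradient into ATP. Of its 17 genes, 13 were lower in 3D cultures. Atp5b, the catalytic β subunit of the F1 head (chromosome 10, 128083273 to 128090391) had 1690, 1670 and 1660 CPM in 2D, 1140, 1120 and 1030 CPM in 3D with palmitate and 947, 989 and 978 CPM in 3D without. The 3 groups did not overlap, and the 3D over 2D log2 fold change was -0.61 ± 0.06 (SE, adjusted p = 2.96e-07, edgeR), or -0.52 with the trend removed. Atp5a1, the α subunit that alternates with it, had 991, 990 and 949 CPM in 2D, 704, 693 and 674 CPM in 3D with palmitate and 621, 650 and 649 CPM in 3D without, again with no overlap, and a log2 fold change of -0.50 ± 0.05 (SE), or -0.47 with the trend removed. With palmitate in 3D, neither Atp5b (0.17, adjusted p = 0.134) nor Atp5a1 (0.11, adjusted p = 0.324) was called (edgeR).

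Of the 5 subunits of the F1 head and central stalk 4 were lower, Atp5e being the other, and all 4 of the peripheral stalk were lower, with log2 fold changes between -0.60 and -0.29. Of the 3 genes for the same c subunit of the membrane ring, Atp5g2 and Atp5g3 were lower, at -0.69 and -0.50, and Atp5g1 had overlapping groups. Among the 3 accessory subunits of the membrane domain Atp5k, subunit e, was the lowest of the complex, with 78.7, 73.4 and 86.8 CPM in 2D, 44.6, 48.5 and 44.1 CPM in 3D with palmitate and 53.2, 45.4 and 45.6 CPM in 3D without (log2 fold change of -0.80 ± 0.08, SE), or -0.29 with the trend removed. Atp5l, subunit g, was the highest, with 15.5, 13.4 and 17.5 CPM in 2D and 17.3, 13.2 and 10.7 CPM in 3D with palmitate, and it overlapped between groups at -0.09 ± 0.15 (SE). Atp5s and Atp5sl have Atp5 names but encode no stable subunit of the synthase, and they were at -0.47 and -0.13. The median of complex V was -0.49, and -0.23 with the trend removed.

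**Figure D3:**
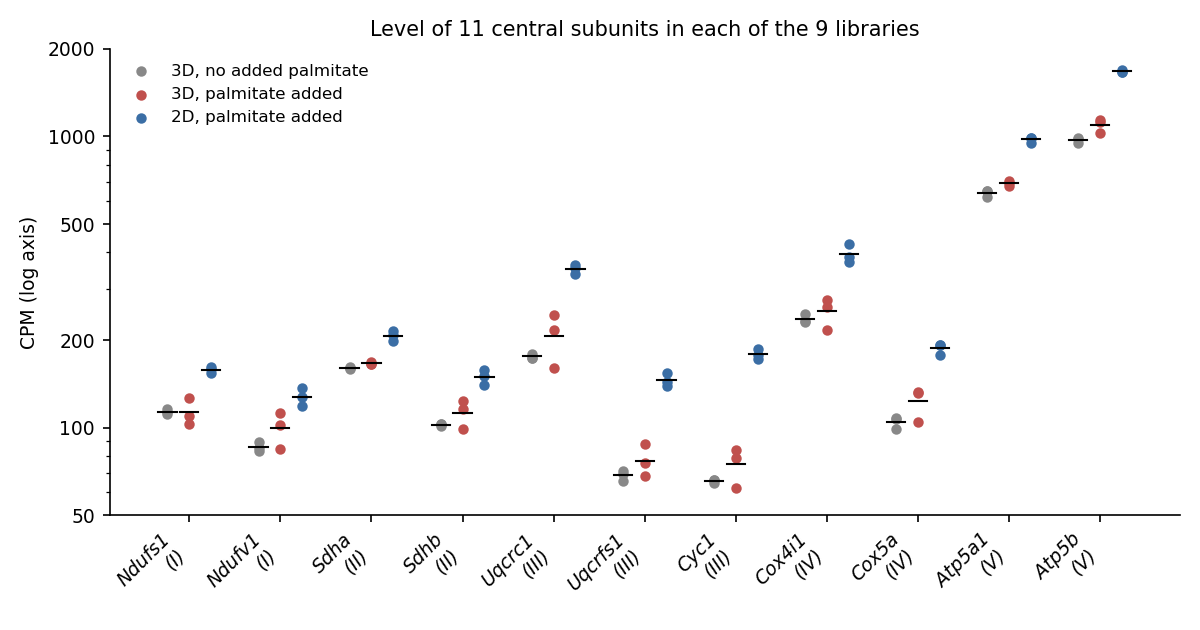
CPM on a log axis is plotted for 11 central subunits in each of the 9 libraries, with the complex in parentheses, points for libraries and a bar for each group's mean. In every gene shown the 2D libraries lie above all 3D libraries, and for Cyc1 the 2D libraries lie between 172 and 186 CPM and the 3D libraries between 62.2 and 83.8 CPM.

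Summed over its tested members, complex III had the lowest level in 3D relative to 2D cultures and complex II the highest. As a percentage of the 2D mean, the sum in 3D cultures with palmitate was 68.2% ± 4.38 for complex I, 82.2% ± 4.31 for complex II, 56.1% ± 6.23 for complex III, 65.6% ± 4.65 for complex IV and 67.8% ± 3.74 for complex V (SD, n = 3). In 3D cultures without palmitate it was 64.8% ± 2.34, 77.7% ± 1.33, 50.1% ± 1.36, 61.8% ± 3.56 and 62.3% ± 0.296 in the same order. These 2 complexes also changed their share of the set. Complex II made up 5.78% to 6.02% of the summed CPM of all members in the 2D libraries and 7.19% to 7.43% in the 6 libraries of 3D cultures, and complex III 11.7% to 11.9% against 9.42% to 10.3%, with no overlap for either. The shares of complexes I, IV and V overlapped between 3D cultures with palmitate and 2D cultures. The trend with GC content and length was not removed from these sums, and no test was applied to them, since genes of a complex are not replicates of a condition, and the sums are dominated by the abundant genes.

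**Figure D4:**
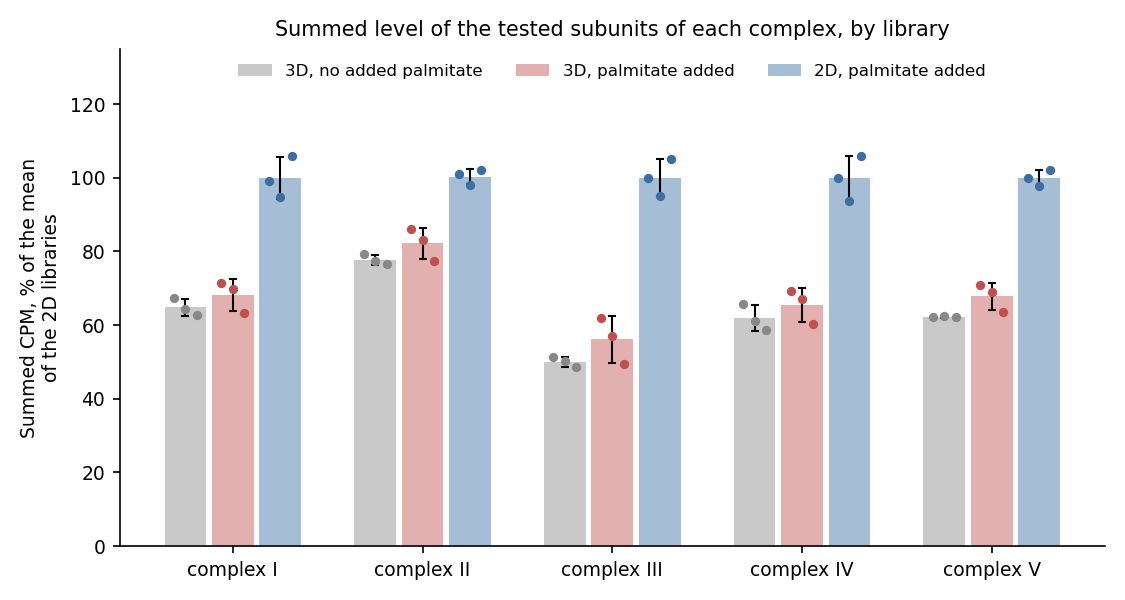
Bars give the mean summed CPM of the tested members of each complex as a percentage of the mean of the 2D libraries, error bars the SD of 3 libraries and points the libraries themselves. All 3D libraries lie below the 2D libraries in every complex, with complex III lowest (49.4% to 61.8% with palmitate) and complex II highest (77.5% to 86.0%).

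Per kilobase of transcript, Atp5b was the most abundant member in 2D cultures, at a mean of 873 CPM per kilobase, followed by Cox4i1 at 530, Ndufb9 at 459 and Cox6c at 428, and Cox6a2 was the least abundant at 2.77. The median over genes in 2D cultures was 79.9 CPM per kilobase for complex I, 99.6 for complex II, 173 for complex III, 192 for complex IV and 166 for complex V. In the isoform groups the dominant gene was the same in all 3 conditions. Atp5g3 contributed 80.5% ± 1.0 of the counts of the 3 c subunit genes in 2D cultures, 79.4% ± 1.44 in 3D with palmitate and 80.1% ± 1.10 in 3D without (SD, n = 3). Atp5g1 contributed 9.31%, 10.2% and 10.9% in the 2D libraries and 11.6%, 12.7% and 13.0% in 3D with palmitate, which did not overlap (exact permutation test, two-sided, p = 0.1, the smallest that 3 against 3 allows). Cox4i1 made up nearly all of the counts of the Cox4 pair, with 7 counts of Cox4i2 beside 12318 of Cox4i1 over the 3 libraries of 3D cultures with palmitate and 4 beside 25851 in 2D cultures. Likewise, Ndufa4l2 had 1 count beside 8223 of Ndufa4 in 3D with palmitate, 4 beside 9939 in 3D without and 8 beside 13663 in 2D. On these few counts, its share in 3D with palmitate did not overlap that of either other condition (exact permutation test, two-sided, p = 0.1 each).

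In the comparison of 3D cultures with and without palmitate, 0 of the 77 members were called by edgeR, against 2.19% of all genes in either direction, and 0 were called by DESeq2. The median log2 fold change was 0.09 over all members, with 0.07 for complex I, 0.08 for complex II, 0.19 for complex III, 0.09 for complex IV and 0.11 for complex V, and the median over all genes was 0.01. At an unadjusted p under 0.05, 15 members were higher with palmitate and 0 lower, against 10.3% of all genes that were higher at that level. The 2 groups did not overlap in 8 of the 77 members, all higher with palmitate. Over the 12575 genes tested, 1305 were higher and 1030 lower without overlap. The 3 members with the smallest p were Ndufs7, Ndufs3 and Uqcrq. Ndufs7, a core subunit with an iron-sulfur cluster next to the ubiquinone site (chromosome 10, 80249121 to 80256794), had 47.4, 38.3 and 31.5 CPM with palmitate and 28.6, 31 and 29.6 CPM without, so its groups did not overlap, with a log2 fold change of 0.44 ± 0.12 (SE, adjusted p = 0.0793, edgeR). Ndufs3, another core subunit, had 27.9, 27.0 and 27.3 CPM with and 24, 23.2 and 22.8 CPM without palmitate (0.23 ± 0.07, SE, adjusted p = 0.106). For Uqcrq the log2 fold change was 0.31 ± 0.10 (SE, adjusted p = 0.113), and its groups overlapped.

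The number of calls with palmitate depended most on a single library. In 55 of the 77 members replicate 3 was the lowest of the 3 libraries of 3D cultures with palmitate, and in 50 replicate 1 was the highest. The shares of all genes with these orders were not counted. Replicate 3 also had the fewest counts of all 9 libraries, and the part of depth was not tested. Replicates 1 and 2 of the 3D cultures with palmitate also differed more from each other than any pair within the other conditions. Their chi-square value per gene was 16.4, against at most 9.3. Over all genes tested, 8.56% were higher with palmitate without replicate 3, against 1.38% with all libraries kept. Among the members, 27 were then higher with palmitate and 0 lower. These were 12 of complex I, 1 of complex II, 5 of complex III, 3 of complex IV and 6 of complex V. Among them Ndufs7 was at 0.54, Uqcrq at 0.40, Uqcrc1 at 0.39 and Cyc1 at 0.31, and the median over all members was 0.14. The fold change with palmitate rose with GC content, with Spearman's rho of 0.48 across the 77 members and 0.23 across 12507 genes, which are not independent replicates. With the trend with GC content and length removed and all libraries kept, Ndufs7, Uqcrc1, Uqcrq, Cox5a and Atp5d were called higher, against 4.95% of all genes. Of the 77 members, 62 had the order 2D with palmitate, 3D with palmitate, 3D without palmitate from the highest to the lowest mean, and in 15 the 3D cultures with palmitate had the lowest mean. Since the 3D libraries with palmitate enter both comparisons, the values of a gene in both are not independent.

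The genes around the complexes were read from lists chosen with earlier results of these data known, and their counts stand against 33.9% of all genes called lower and 34.5% called higher, or 36.8% and 34.7% with the trend removed. In 3D against 2D cultures with palmitate, 9 of 14 assembly factors of complex I were lower and 0 higher, among them Ndufaf4 at -0.84, and 2 of 4 of complex II were lower and 0 higher, namely Sdhaf1 and Sdhaf3 at -0.90 and -1.33. Of the assembly factors of complex III, 4 of 6 were lower and 0 higher (Uqcc2 at -0.99), of complex IV 13 of 22 were lower and 2 higher (Cox17, a copper chaperone, at -0.88), and of complex V 2 of 4 were lower and 0 higher (Tmem70 at -0.67). With the trend removed, the lower genes were 7 of 14 for complex I, 2 of 4 for complex II, 4 of 6 for complex III, 8 of 22 for complex IV and 1 of 4 for complex V, and 3 were higher, all of complex IV, whose median moved from -0.33 to -0.12. Several assembly factors stood near or above 0, such as Acad9 at 0.07 and Sdhaf2 at 0.08, and Cox16 and Coa5 were called higher at 0.93 and 0.23. Cox20, a chaperone of a mitochondrially encoded core subunit, was at -0.06 in 3D over 2D and at -0.33 with palmitate in 3D, and neither was called. With the trend removed it was called higher in 3D over 2D, at 0.43 (adjusted p = 6.6e-05, edgeR). With palmitate it was called lower with the trend removed (0.00924), without the filter on low counts (0.00788) and without replicate 3 of the 3D cultures with palmitate (0.00416). Among the other electron carriers and enzymes that deliver electrons to ubiquinone or cytochrome c, 12 of 17 were lower and 4 were higher, or 11 and 3 with the trend removed. Cycs, cytochrome c, was at -1.04 and Coq7 of ubiquinone synthesis at -1.18. The 4 higher genes were Sqrdl, which oxidizes sulfide, at 1.60 ± 0.11 (SE, adjusted p = 1.5e-08, edgeR), Gpd2 of the glycerol phosphate shuttle at 0.36, Etfdh, which passes electrons from fatty acid oxidation to ubiquinone, at 0.33, and Aifm2 at 0.19. Sqrdl had a mean of 7.17 ± 0.404 CPM in 2D, 21.9 ± 3.16 CPM in 3D with palmitate and 22.8 ± 1.52 CPM in 3D without (SD, n = 3). Etfb, a subunit of the flavoprotein that feeds Etfdh, was at -0.27 in this comparison, or 0.03 with the trend removed.

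All 14 genes of the tricarboxylic acid cycle tested were lower in 3D cultures, with a median of -0.54 and with Idh3a at -0.95, Cs, citrate synthase, at -0.76 and Suclg2 at -1.06. Their transcripts were longer than those of the subunits, with a median of 2474 nt, and with the trend removed all 14 were still lower, with a median of -0.49. Of 18 genes of mitochondrial import and the outer membrane 17 were lower, with a median of -0.62, or -0.39 with the trend removed. Of 77 mitochondrial ribosomal protein genes 73 were lower, with a median of -0.68, or -0.49 with the trend removed. Lower values were not confined to mitochondria, since 81 of 82 genes in the list of cytosolic ribosomal proteins were lower, with a median of -0.94, or -0.60 with the trend removed. With palmitate in 3D, 1 gene of the tricarboxylic acid cycle list was called, Suclg1 at 0.26 (adjusted p = 0.0419, edgeR), and this call was lost without any of 8 libraries in turn. In the cytosolic ribosomal list 1 gene was called as well, Rps19bp1 at 0.45 (adjusted p = 0.0478, edgeR), which encodes a partner of a ribosomal protein and not a ribosomal protein, and this call was lost under 11 of the alternatives. In the other lists of related genes edgeR called 0, and DESeq2 on all libraries called 1 complex I assembly factor (Ecsit), 2 of the other electron carriers, Etfb among them, and 1 gene of import, all higher. Without replicate 3 of the 3D cultures with palmitate, 34 of the 82 cytosolic and 18 of the 77 mitochondrial ribosomal genes were called higher, against 8.56% of all genes.

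**Figure D5:**
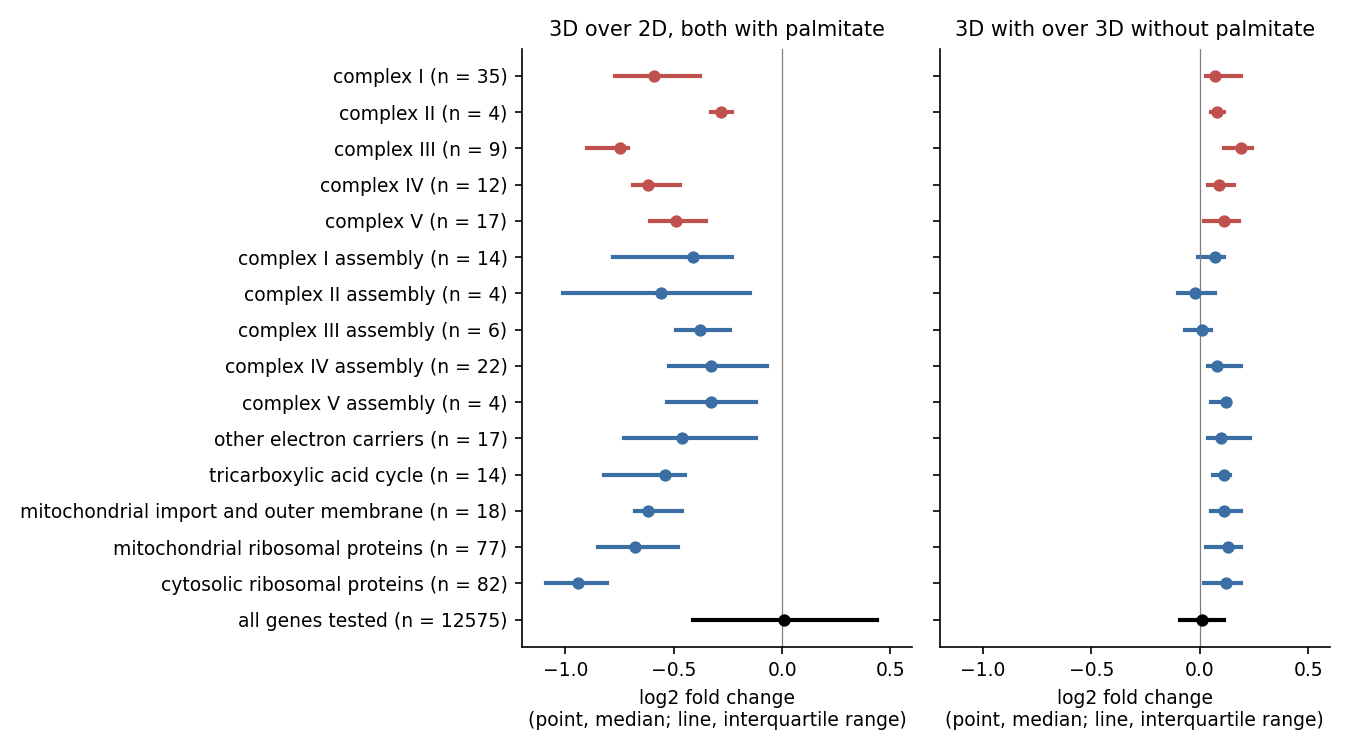
Points give the median and lines the interquartile range of log2 fold changes of the subunits by complex, of the related gene lists and of all genes tested, for 3D over 2D cultures with palmitate (left) and for 3D cultures with over without palmitate (right). On the left the lists of related genes lie below 0 like the complexes, with the cytosolic ribosomal proteins lowest at -0.94, and all genes are centred at 0.01.

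Among 16 tested regulators of nuclear genes for mitochondrial proteins, 10 were lower and 1 was higher in 3D cultures. With the trend removed these counts were 12 and 2. Myc, a transcription factor that promotes ribosome and mitochondrial biogenesis, was at 461 ± 22.2 CPM in 2D, 166 ± 13.8 CPM in 3D with palmitate and 148 ± 6.87 CPM in 3D without (SD, n = 3), a log2 fold change of -1.47 ± 0.07 (SE, adjusted p = 3.19e-10, edgeR). The coactivators Ppargc1b and Pprc1 were at -1.10 and -0.62, and Ppargc1a had too few counts to be tested. Nrf1, Gabpb1, Esrra and Yy1, which bind promoters of respiratory genes, were lower by small amounts, between -0.31 and -0.17, and Gabpa was at 0.23 without being called. Tfam, which packages mitochondrial DNA and starts its transcription, was at -0.37. The gene called higher without the trend removed was Hif1a, the oxygen-regulated transcription factor subunit, at 0.34. With palmitate in 3D, 0 of the 16 were called, and 1 was called higher with the trend removed.

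Letters that some of these regulators are known to bind were counted in promoters. Any part of these regulators in the differences was not tested. Promoters were defined in the RefSeq table for GRCm38.p6 as 250 bases before to 50 bases after each gene's start. Of the 85 members 69 were found there, 66 by symbol and 3 by an older symbol, with 75 promoters in all. The words searched on both strands were GCATGCGC for NRF1, CCGGAAGT for ETS factors such as GABPA, AAGATGGC for YY1 and CAAGGTCA for estrogen-related receptors, and matches of the NRF1 word on the 2 strands can overlap each other. The NRF1 word was in 13.3% of the 75 member promoters, against 2.71% of all 32851 promoters and 5.17% of the 12160 promoters of genes tested. The YY1 word was in 16% of member promoters against 2.75% and 4.38%, the receptor word in 5.33% against 1.56% and 1.05%, and the ETS word in 6.67% against 3.89% and 7.97%. Atp5sl, which encodes no stable subunit, entered these shares and that of complex V with 2 overlapping promoters, both holding the YY1 word. At least 1 of the 4 words was in 35.3% of 34 promoters of complex I, 66.7% of 3 of complex II, 60.0% of 5 of complex III, 15.4% of 13 of complex IV and 50% of 20 of complex V. The same share was 17.2% over promoters of genes tested and 10.3% over all promoters. The 13 promoters of complex IV included those of Cox6b2, Cox7a1, Cox7b2 and Cox8b, which failed the filter on low counts and held none of the words. Its share is therefore not comparable with that of genes tested, and the value of complex II rested on 3 promoters. These are descriptions of letters in windows, with no test, and a match is not a site shown to be bound.

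To show what such a promoter looks like, the called member of each complex with the smallest p that had a single promoter and at least 1 of the words before both the RefSeq and the GENCODE start is given, which left none for complex II. Each is written 5′ to 3′ in the direction of the gene up to the base before the first annotated start, with the matched word in capitals. Ndufa6 (chr15:82354323-82354541, minus strand) holds the NRF1 word from 83 to 76 bases before the RefSeq start. Uqcr11 (chr10:80406831-80407071, minus strand) holds the ETS word from 66 to 59 bases before it. Cox6a1 (chr5:115348982-115349208, minus strand) holds the NRF1 word on both strands as an overlapping pair from 162 to 153 bases before it, and Atp5g3 (chr2:73911327-73911576, minus strand) the receptor word on the opposite strand from 52 to 45 bases before it. In 3D over 2D cultures with palmitate these genes were at -0.82, -0.72, -0.47 and -0.50. With the trend removed they were at -0.43, -0.24, -0.03 and -0.15, and Cox6a1 and Atp5g3 were then not called.
Ndufa6: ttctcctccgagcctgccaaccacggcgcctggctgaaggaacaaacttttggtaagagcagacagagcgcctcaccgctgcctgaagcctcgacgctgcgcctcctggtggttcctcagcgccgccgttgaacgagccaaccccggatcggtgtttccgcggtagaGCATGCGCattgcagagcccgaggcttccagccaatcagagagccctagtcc
Uqcr11: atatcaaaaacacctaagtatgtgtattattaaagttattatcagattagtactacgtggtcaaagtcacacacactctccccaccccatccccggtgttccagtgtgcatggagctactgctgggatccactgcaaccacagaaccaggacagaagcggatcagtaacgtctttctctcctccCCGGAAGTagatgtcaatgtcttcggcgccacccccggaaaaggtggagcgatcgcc
Cox6a1: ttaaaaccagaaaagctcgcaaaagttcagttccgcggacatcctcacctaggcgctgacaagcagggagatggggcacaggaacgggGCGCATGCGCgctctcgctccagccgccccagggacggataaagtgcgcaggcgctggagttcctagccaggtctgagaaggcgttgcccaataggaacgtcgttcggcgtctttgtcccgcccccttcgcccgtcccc
Atp5g3: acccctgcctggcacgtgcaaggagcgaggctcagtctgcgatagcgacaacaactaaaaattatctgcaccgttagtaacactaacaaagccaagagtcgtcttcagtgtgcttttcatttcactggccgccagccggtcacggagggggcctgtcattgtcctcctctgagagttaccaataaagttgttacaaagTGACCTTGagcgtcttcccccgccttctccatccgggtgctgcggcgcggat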

How the data were processed

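The deposited table holds raw read counts per gene, with 1 column per library and 0 columns that could not be assigned to a sample. According to the methods of the study and the submitters' processing notes, the authors cleaned single-end reads of a stranded mRNA kit, checked quality in FastQC 0.11.9, mapped the reads on GRCm38 using HISAT2 2.1.0 and obtained these counts with HTSeq-count. The annotation release and the strand setting of the counting are not given in the sources used here, so reads of overlapping genes, antisense genes and near-identical copies could be split or lost. Total counts ranged from 6595514 to 31177756 per library, which bounds how precisely rare transcripts are measured, and the gene Rn45s took 1.77% to 5.38% of them.

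Groups followed the sample labels. Members and gene lists were chosen with earlier results of these data known. In R 4.3.3, edgeR 4.0.16 was used to remove genes with low counts (filterByExpr), to scale libraries by TMM and to fit all 9 libraries in a quasi-likelihood model whose only term was the condition, and p-values were adjusted by Benjamini-Hochberg over all 12575 genes and called under 0.05. Standard errors were derived from the log2 fold change and the F statistic of its test (ratio of its size to the root of F). Shares of isoforms were compared by exact two-sided permutation tests. Transcript length and GC content came from GENCODE M21 (GRCm38), where 23376 genes of the table matched by symbol and 676 by a synonym, and their trend was removed as an offset per library through natural splines with 4 degrees of freedom. Other alternatives were RLE scaling, total counts, other filters, the 2 groups alone, a replicate block, DESeq2 1.42.0, a minimum fold and the omission of single libraries. The fits were also run on counts simulated with a single spread for all genes and no trend with GC content or length. That simulation cannot show how the fits handle such a trend or groups of unequal spread. No 2 libraries of a condition agreed within sampling noise. The chi-square value per gene was 16.4 to 19.7 for pairs of 3D cultures with palmitate. It was 4.84 to 7.37 for 3D cultures without palmitate and 3.89 to 9.3 for 2D cultures, whereas the fit did not give each condition a spread of its own. Named are, per complex, the members with the highest and the lowest log2 fold change and the smallest p against 2D cultures, the 3 members with the smallest p for palmitate, core subunits, isoform groups and some genes of related lists with the smallest p, and further genes were named to complete a group after their values were seen.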

Additional observations from a re-analysis of the deposited data

How the results depend on the processing

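In 3D over 2D cultures with palmitate, the count of members called lower lay between 66 and 73 with 1 library left out, and at 69 or more under every other alternative except the removal of the trend with GC content and length (52) and a required log2 difference of at least 0.5 in size (44). With the trend removed, 5 members were called higher and the medians were -0.27 over all members, -0.31 for complex I, -0.54 for complex III, -0.22 for complex IV and -0.23 for complex V, and the cause was not tested. The log2 fold changes that then changed sign among the genes named by the rule were Ndufb11 (0.19), Sdhd (0.05), Cox7a2l (0.07), Atp5l (0.36), Atp5g1 (0.21), Ndufa4 (0.16), Cox20 (0.43) and Etfb (0.03), and for palmitate Uqcc2 (-0.04). With 1 library left out, the sign also changed, with no call in the fits where it did, for values that ranged from -0.33 to 0.02 for Atp5l and from -0.15 to 0.04 for Cox20 in 3D over 2D, and for palmitate from -0.25 to 0.08 for Sdhaf3, -0.06 to 0.22 for Sdhaf1, -0.04 to 0.12 for Uqcc2, -0.03 to 0.14 for Cox17 and -0.18 to 0.01 for Sqrdl. With palmitate in 3D cultures, members called higher were 5 with the trend removed, 2 with no filter on low counts and between 0 and 27 after omission of a single library, 27 being reached when replicate 3 of 3D with palmitate was dropped, and 0 otherwise. Per kilobase, the share of Atp5g1 among the c subunit genes was 13.9% in 3D with palmitate, 13.1% in 3D without and 11.3% in 2D, that of Atp5g2 12.3%, 12.3% and 14.1% and that of Atp5g3 73.9%, 74.6% and 74.7%, and Ndufa4l2 stood at 0.0256% of its pair in 3D without palmitate and 0.0359% in 2D. Libraries with the same replicate number did not deviate together (correlations between -0.238 and 0.145), so the numbers were not treated as pairs, and with a replicate block 70 members were lower in spheroids than in monolayers and 0 were called with palmitate. Of the 1331 values of named genes under alternatives, 1252 kept their direction and side of the threshold. The depth of 6595514 counts in the smallest library limits what could be seen in members with few counts, such as Cox6a2. The 8 members that were not tested had few or 0 counts in the larger libraries as well.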
